A study of Saccharomyces cerevisiae with 12 samples.

Results

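The genes described are 10 yeast genes of inositol and phospholipid synthesis: INO1 (YJL153C), INO2 (YDR123C), INO4 (YOL108C), OPI1 (YHL020C), OPI3 (YJR073C), CHO1 (YER026C), CHO2 (YGR157W), ITR1 (YDR497C), PSD1 (YNL169C) and CKI1 (YLR133W). They were chosen by gene symbol, each was represented by 1 probe set on the Affymetrix array, and together they are 10 of the 5449 Saccharomyces cerevisiae genes measured. RNA came from 12 cultures, 3 labelled biological replicates of each of 4 strains: WT and hac1∆, and their counterparts WT(hsf1) and hac1∆(hsf1). Cells in early exponential growth in SD-URA, a synthetic medium without uracil, received 2.5 mM DTT (dithiothreitol) for 2 h. DTT reduces disulfide bonds and so hinders protein folding in the endoplasmic reticulum (ER); all 4 strains received it, and no untreated culture was analysed here. HAC1, deleted in both hac1∆ strains, encodes the factor that drives the unfolded protein response, and HSF1 encodes the heat shock transcription factor. What "(hsf1)" denotes, and whether it is the same change in both strains that carry it, is not given in the labels, nor is the inositol or choline content of the medium.

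Budding yeast makes inositol from glucose 6-phosphate and joins it to lipid to give phosphatidylinositol, while phosphatidylserine, phosphatidylethanolamine and phosphatidylcholine are made in sequence from CDP-diacylglycerol. Many of the enzymes' genes carry a promoter element that is bound by a pair of activators, Ino2 and Ino4, and are held down by the repressor Opi1, which is kept at the ER membrane when phosphatidic acid is plentiful and moves to the nucleus when inositol is supplied. The pathway is tied to the unfolded protein response: cells without HAC1 are known to need inositol for growth, and shortage of inositol is known to activate the response.

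Values are log2 signals as deposited, and a difference of strain means is a log2 change. A gene was called higher or lower when the p-value from limma, a linear model with moderated variances fitted to all genes and all 12 arrays, was under 0.05 after Benjamini-Hochberg adjustment over the 5449 genes. Background was set at a log2 signal of 5.49, and all 10 genes lay above it on each array. Lack of overlap between the arrays of 2 strains was common. It held for 57.7% of all genes between hac1∆(hsf1) and WT, the lowest share, and for 79.7% between hac1∆ and WT(hsf1), the highest. HAC1 itself was below background on all 6 arrays of the hac1∆ strains (5.24 ± 0.004, SD, n = 3, in hac1∆ and 5.26 ± 0.05 in hac1∆(hsf1)) against 10.58 ± 0.22 in WT and 10.80 ± 0.08 in WT(hsf1). HSF1 signal was 10.54 to 10.81 in hac1∆(hsf1) but 8.41 to 8.63 in WT(hsf1) and 7.75 to 7.87 in hac1∆; the WT replicates gave 8.08, 9.61 and 8.11, so that replicate 2 stood above the others. WT replicate 2 also correlated with the hac1∆(hsf1) arrays at 0.973 to 0.978 across genes, where the other WT arrays reached 0.939 to 0.951, so calls of the 10 genes that change without it are given with the results. Genes specific to a-type cells were high in every strain (STE2 mean signal 8.67 to 9.84). The alpha-factor gene MF(ALPHA)1 was 8.17 to 8.88 on the WT arrays and 5.81 to 6.88 on the others, while STE3, the other alpha-type gene measured, had strain means of 6.67 to 6.86. The labels give no mating type, and the part of this difference in the comparisons with WT was not tested. URA3 signal was lower with (hsf1) in both backgrounds, without overlap of arrays. Its log2 change was −2.53 ± 0.07 (SE) from hac1∆ to hac1∆(hsf1) and −0.88 ± 0.07 from WT to WT(hsf1). The first change minus the second was −1.65 ± 0.09 (limma adjusted p = 8.77e-09). What part this URA3 difference had in the changes with (hsf1) was not tested.

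INO1 encodes inositol-3-phosphate synthase, which makes inositol phosphate from glucose 6-phosphate and is the classic target of Ino2 and Ino4. Its log2 signal was 11.90, 11.83 and 11.77 in the WT replicates, 11.23, 11.34 and 11.28 in WT(hsf1), 11.52, 11.56 and 11.49 in hac1∆, and 11.75, 11.71 and 11.68 in hac1∆(hsf1). The 4 strains did not overlap on any array, with WT highest, then hac1∆(hsf1), hac1∆ and WT(hsf1). INO1 fell 1.24-fold from WT to hac1∆ (log2 change −0.31 ± 0.05, SE, limma adjusted p = 0.00021) and 1.46-fold from WT to WT(hsf1) (−0.55 ± 0.05, adjusted p = 4.04e-07). From hac1∆ to hac1∆(hsf1) it rose by 0.19 ± 0.05 (adjusted p = 0.0045).

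ITR1 encodes the main transporter for inositol uptake. It was 11.35, 11.31 and 11.31 in WT, 11.11, 11.15 and 11.13 in WT(hsf1), 11.13, 11.19 and 11.21 in hac1∆, and 11.15, 11.22 and 11.19 in hac1∆(hsf1). WT lay above the other 3 strains, whose neighbours in the order of levels were not called apart. The changes from WT were small, at −0.15 ± 0.04 in hac1∆ (limma adjusted p = 0.00847), −0.19 ± 0.04 in WT(hsf1) (adjusted p = 0.000932) and −0.14 ± 0.04 in hac1∆(hsf1) (adjusted p = 0.0114), and the last was not called when those strains were fitted alone.

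**Figure D1:**
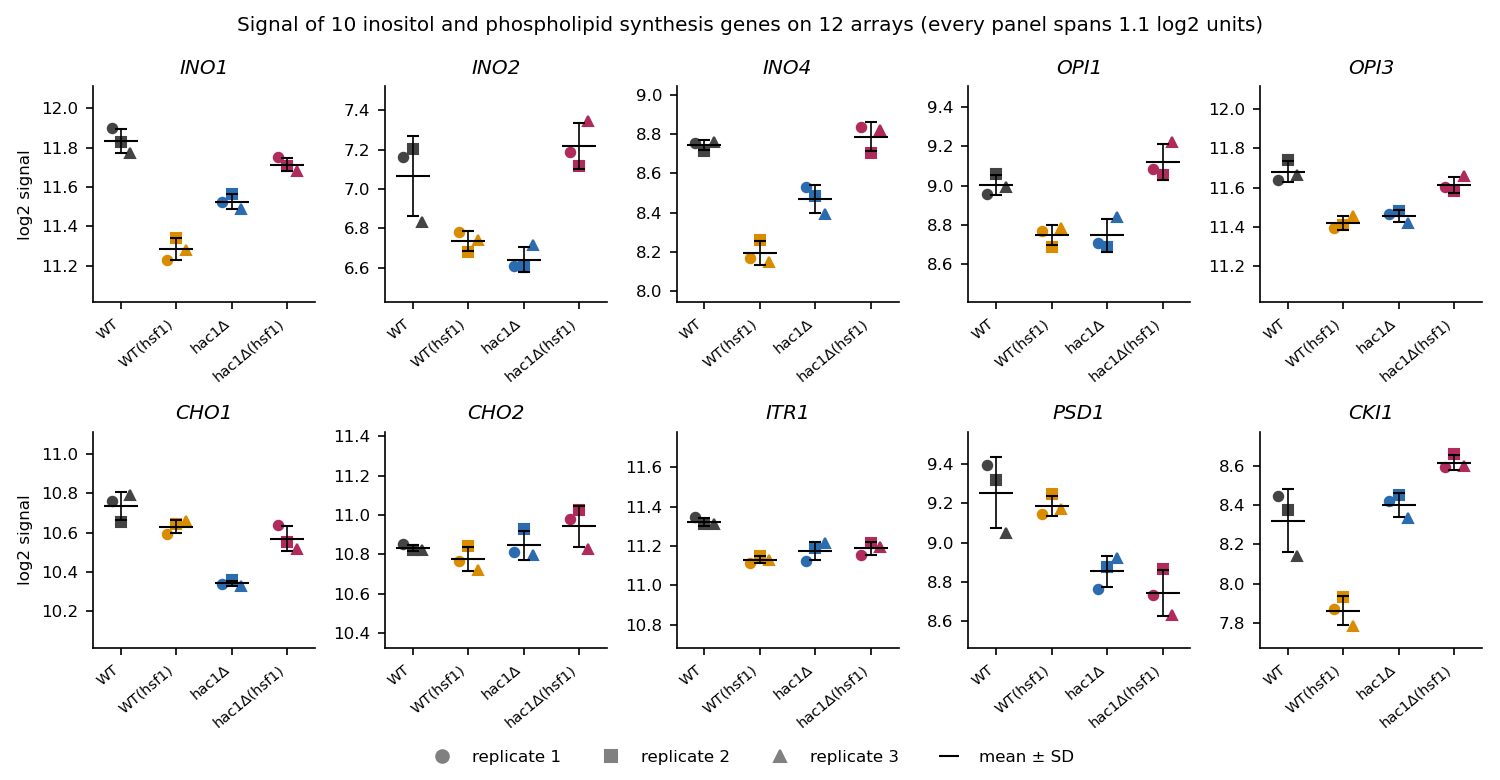
Log2 signal of each of the 10 genes (vertical axis, a different range but the same span in each panel) in the 4 strains (horizontal axis); points are single arrays with a symbol per replicate, and bars are the strain mean ± SD (n = 3). INO1, INO4, OPI1, OPI3 and INO2 are lower in WT(hsf1) and hac1∆ than in WT and hac1∆(hsf1), whereas PSD1 is low in both hac1∆ strains and CHO1 is lowest in hac1∆.

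INO2 encodes a basic helix-loop-helix activator that acts only in a pair with Ino4. Its signal was 7.16, 7.20 and 6.83 in WT, 6.78, 6.68 and 6.74 in WT(hsf1), 6.61, 6.60 and 6.71 in hac1∆, and 7.19, 7.12 and 7.35 in hac1∆(hsf1). WT replicate 3 lay well below the other WT arrays yet above all arrays of WT(hsf1) and hac1∆. INO2 fell by 0.42 ± 0.09 from WT to hac1∆ (limma adjusted p = 0.00172) and rose by 0.58 ± 0.09 from hac1∆ to hac1∆(hsf1) (adjusted p = 0.000128). Between WT and hac1∆(hsf1) the change was 0.15 ± 0.09 and not called, but without WT replicate 2 it was called at 0.22 (adjusted p = 0.0474).

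INO4, the partner of INO2, was 8.76, 8.71 and 8.76 in WT, 8.17, 8.26 and 8.15 in WT(hsf1), 8.53, 8.49 and 8.39 in hac1∆, and 8.84, 8.70 and 8.82 in hac1∆(hsf1). WT(hsf1) was lowest and hac1∆ intermediate, without overlap, while WT and hac1∆(hsf1) overlapped at the top. INO4 fell by 0.55 ± 0.05 from WT to WT(hsf1) (limma adjusted p = 1.04e-06) and by 0.27 ± 0.05 from WT to hac1∆ (adjusted p = 0.00098). WT and hac1∆(hsf1) differed by 0.04 ± 0.05 (adjusted p = 0.498).

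OPI1, the gene of the repressor, was 8.96, 9.06 and 8.99 in WT, 8.77, 8.69 and 8.78 in WT(hsf1), 8.71, 8.69 and 8.84 in hac1∆, and 9.08, 9.05 and 9.22 in hac1∆(hsf1). WT(hsf1) and hac1∆ overlapped and both lay below the overlapping pair of WT and hac1∆(hsf1). The log2 change was −0.26 ± 0.06 from WT to hac1∆ (limma adjusted p = 0.00298), −0.25 ± 0.06 from WT to WT(hsf1) (adjusted p = 0.00191) and 0.37 ± 0.06 from hac1∆ to hac1∆(hsf1) (adjusted p = 0.000149).

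Among the enzymes of the CDP-diacylglycerol route, CHO1 encodes phosphatidylserine synthase, at the head of the branch to phosphatidylcholine. It was 10.76, 10.65 and 10.79 in WT, 10.59, 10.64 and 10.66 in WT(hsf1), 10.34, 10.36 and 10.33 in hac1∆, and 10.64, 10.55 and 10.51 in hac1∆(hsf1). All hac1∆ arrays lay below all other arrays. CHO1 fell 1.31-fold from WT to hac1∆ (−0.39 ± 0.05, limma adjusted p = 3.81e-05) and rose by 0.23 ± 0.05 from hac1∆ to hac1∆(hsf1) (adjusted p = 0.00153). From WT to WT(hsf1) it changed by −0.11 ± 0.05 and was not called (adjusted p = 0.074), but it was called without WT replicate 2, at −0.15 (adjusted p = 0.0195), with quantile normalization and with array weights.

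PSD1 encodes the mitochondrial phosphatidylserine decarboxylase, which makes phosphatidylethanolamine. Its signal was 9.40, 9.32 and 9.05 in WT, 9.15, 9.25 and 9.17 in WT(hsf1), 8.77, 8.88 and 8.92 in hac1∆, and 8.73, 8.87 and 8.63 in hac1∆(hsf1). The strains split by HAC1, with no overlap between the arrays with it and those without it. PSD1 fell by 0.40 ± 0.09 from WT to hac1∆ (limma adjusted p = 0.00188) and by 0.44 ± 0.09 from WT(hsf1) to hac1∆(hsf1) (adjusted p = 0.000358). Neither pair whose labels differ only by (hsf1) was called, at −0.07 ± 0.09 with HAC1 and −0.11 ± 0.09 without it. With array weights the change from WT to WT(hsf1) was called, at −0.16.

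The last steps to phosphatidylcholine are methylations by Cho2 and Opi3. OPI3 was 11.64, 11.74 and 11.66 in WT, 11.39, 11.41 and 11.46 in WT(hsf1), 11.47, 11.48 and 11.42 in hac1∆, and 11.60, 11.58 and 11.66 in hac1∆(hsf1). As for OPI1, the arrays formed a lower pair of strains, WT(hsf1) and hac1∆, and an upper pair, WT and hac1∆(hsf1). OPI3 changed by −0.22 ± 0.04 from WT to hac1∆ (limma adjusted p = 0.00107) and by −0.26 ± 0.04 from WT to WT(hsf1) (adjusted p = 0.000167), and with quantile normalization these were −0.14 and −0.15, still called.

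CHO2, whose product acts just before Opi3, was 10.85, 10.82 and 10.82 in WT, 10.76, 10.84 and 10.72 in WT(hsf1), 10.81, 10.93 and 10.79 in hac1∆, and 10.98, 11.03 and 10.83 in hac1∆(hsf1). The strains overlapped in each neighbouring pair of the order of levels and no neighbours were called apart. Of the 6 pairs of strains only hac1∆(hsf1) against WT(hsf1) was called, at 0.17 ± 0.06 (limma adjusted p = 0.019), although one array of each strain overlapped. That call ended with arrays shifted to a common median, at 0.13, and without WT(hsf1) replicate 1 or 3 or hac1∆(hsf1) replicate 1 or 2, at 0.13 to 0.16.

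CKI1 encodes choline kinase, the entry of the Kennedy route that makes phosphatidylcholine from free choline. It was 8.44, 8.37 and 8.14 in WT, 7.87, 7.93 and 7.78 in WT(hsf1), 8.42, 8.45 and 8.33 in hac1∆, and 8.59, 8.66 and 8.60 in hac1∆(hsf1). WT(hsf1) was lowest and hac1∆(hsf1) highest, without overlap, and WT and hac1∆ overlapped between them. CKI1 fell by 0.46 ± 0.07 from WT to WT(hsf1) (limma adjusted p = 9.71e-05) and was 1.69-fold higher in hac1∆(hsf1) than in WT(hsf1) (0.75 ± 0.07, adjusted p = 6.39e-07). Its rise from hac1∆ to hac1∆(hsf1), 0.21 ± 0.07 (adjusted p = 0.0216), was not called without hac1∆ replicate 3, at 0.18, or hac1∆(hsf1) replicate 2, at 0.19.

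Without HAC1 most of these transcripts were modestly lower than in WT. From WT to hac1∆, 8 of the 10 genes fell and none rose, where 22.3% of all genes fell and 28.4% rose. The exceptions were CHO2 (0.01 ± 0.06) and CKI1 (0.08 ± 0.07). The median log2 change of the 10 genes was −0.27 and that of all genes 0.03, and the lowest value among the 10 was that of INO2. By comparison KAR2, the ER Hsp70 and a direct target of the unfolded protein response, changed by −1.60 ± 0.06 between the same strains. Without WT replicate 2 the count that fell was again 8, where 1228 of all 5449 genes fell.

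WT(hsf1) was compared with WT to ask what differed with (hsf1) in cells that have HAC1. From WT to WT(hsf1), 7 of the 10 genes fell and none rose, where 33.8% of all genes fell and 32.3% rose. The median change was −0.26, against −0.01 for all genes. INO1 and INO4 changed most, both at −0.55 ± 0.05, followed by CKI1 at −0.46 ± 0.07 and INO2 at −0.33 ± 0.09 (limma adjusted p = 0.00532). CHO1, CHO2 (−0.06 ± 0.06) and PSD1 were not called. The HSF1 change between these strains rested on WT replicate 2: it was −0.08 ± 0.30 and not called with all arrays (adjusted p = 0.831), and 0.43 and called without that replicate (adjusted p = 0.000387). The part of HSF1 in the result was not tested. Without WT replicate 2, CHO1 joined the genes that fell, which made 8, where 1764 of all 5449 genes fell. This comparison and those of hac1∆ and hac1∆(hsf1) with WT share the WT arrays.

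**Figure D2:**
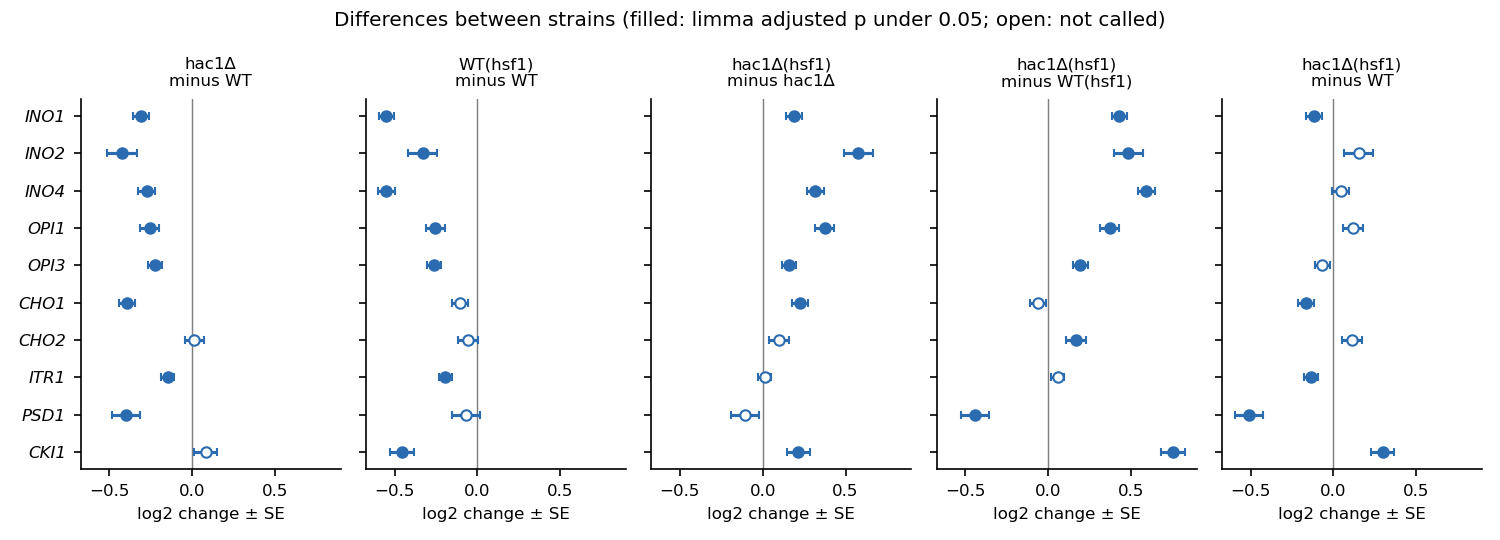
Log2 change ± SE of the 10 genes (rows) in 5 comparisons of strains (panels) from the fit to 12 arrays; filled points have a limma adjusted p under 0.05 and open points were not called. In the first 2 panels the called genes lie left of 0, in the third they lie right of 0, and in the fourth PSD1 is the called gene that lies left of 0.

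In cells without HAC1 the label (hsf1) went with higher levels. From hac1∆ to hac1∆(hsf1), 7 of the 10 genes rose and none fell, where 26.5% of all genes rose and 30.7% fell. The median change was 0.20, against −0.01 for all genes. INO2 (0.58 ± 0.09), OPI1 (0.37 ± 0.06) and INO4 (0.32 ± 0.05, limma adjusted p = 0.000229) changed most, ahead of CHO1, CKI1, INO1 and OPI3 (0.16 ± 0.04, adjusted p = 0.00803). CHO2 (0.10 ± 0.06), ITR1 (0.01 ± 0.04) and PSD1 were not called. In this pair of strains HSF1 rose by 2.84 ± 0.30 and KAR2 by 1.04 ± 0.06, and the part of either in the result was not tested.

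Between the strains that both carry (hsf1), most of the 10 genes had higher, not lower, signal in the strain without HAC1. These strains also differed in HSF1 signal, which averaged 8.52 ± 0.11 (SD, n = 3) in WT(hsf1) and 10.67 ± 0.13 in hac1∆(hsf1). The 2 differences cannot be told apart here. From WT(hsf1) to hac1∆(hsf1), 7 rose and 1 fell, where 41.7% of all genes rose and 35.8% fell. CKI1 rose most, then INO4 by 0.59 ± 0.05 (limma adjusted p = 3.14e-07), INO2 by 0.48 ± 0.09 and INO1 by 0.43 ± 0.05. OPI1 (0.37 ± 0.06), OPI3 (0.19 ± 0.04) and CHO2 rose less. PSD1 fell, and CHO1 (−0.06 ± 0.05) and ITR1 (0.06 ± 0.04) were not called.

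Between hac1∆(hsf1) and WT the 10 genes were called in both directions, at about the rate of all genes. From WT to hac1∆(hsf1), 4 of the 10 genes fell and 1 rose, where 28.1% of all genes fell and 29.0% rose. PSD1 fell by 0.51 ± 0.09 (limma adjusted p = 0.000286), CHO1 by 0.17 ± 0.05 (adjusted p = 0.0107), ITR1 by 0.14 ± 0.04 and INO1 by 0.12 ± 0.05 (adjusted p = 0.0481), and CKI1 rose by 0.30 ± 0.07 (adjusted p = 0.00359). The call of INO1 ended without WT replicate 2, at −0.12 (adjusted p = 0.0692) and under 12 alternatives in all, at −0.12 to −0.08. With only those strains fitted 2 of the 10 genes were called, and CHO1 and ITR1 were not. Over all 5449 genes that fit called 2516, against 3111 in the main fit. The remaining pair, hac1∆ against WT(hsf1), was used for the order of levels: 3 of the 10 genes were higher in hac1∆ and 2 lower, where 35.8% of all genes were higher and 32.5% lower.

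The interaction, which is the change with (hsf1) in hac1∆ cells minus the change with (hsf1) in WT cells, tests whether the difference that goes with (hsf1) was equal in both backgrounds. It was called upward for 8 of the 10 genes and downward for none, where 35.7% of all genes were called upward and 34.0% downward. The estimates were 0.91 ± 0.13 for INO2 (limma adjusted p = 2.87e-05), 0.87 ± 0.07 for INO4 (adjusted p = 3.6e-07), 0.74 ± 0.07 for INO1 (adjusted p = 6.4e-07), 0.67 ± 0.10 for CKI1, 0.63 ± 0.08 for OPI1, 0.42 ± 0.06 for OPI3, 0.33 ± 0.07 for CHO1 and 0.21 ± 0.06 for ITR1 (adjusted p = 0.00597). CHO2 (0.15 ± 0.08) and PSD1 (−0.04 ± 0.12) were not called. The interaction of INO2 was above that of 90.4% of all genes, and the median over the 10 genes was 0.52 against 0.01 over all genes.

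INO1, INO2, INO4, OPI1, OPI3 and CKI1 fell with (hsf1) in WT cells, rose with it in hac1∆ cells and had a called interaction. They are 60.0% of the 10 genes, where 16.2% of 37 other genes of the pathway and 15.7% of all genes met the same rule. That rule was chosen after the values of the 10 genes were seen, so these shares are a description and not a test. The interaction is the difference of the 2 changes with (hsf1), so its call adds little to theirs. The 2 changes with (hsf1) are drawn from separate arrays. HSF1 signal itself had an interaction of 2.92 ± 0.42, or 2.42 without WT replicate 2, with much higher levels in hac1∆(hsf1) than in WT(hsf1), so the 2 strains that carry (hsf1) differ in HSF1 transcript as well as in HAC1, and these cannot be told apart here. Without WT replicate 2 the interaction was called upward for the same number, 8, where 1930 of all 5449 genes were. It was then 0.74 for INO1 and 0.84 for INO2.

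**Figure D3:**
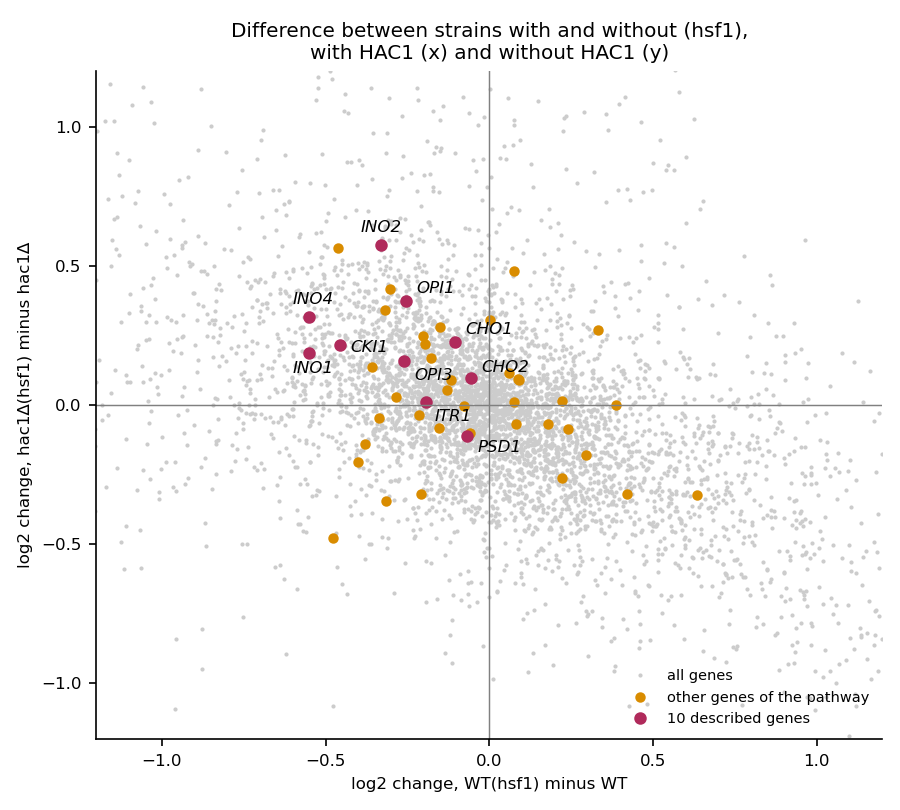
Each point is a gene, with the log2 change from WT to WT(hsf1) on the horizontal axis and from hac1∆ to hac1∆(hsf1) on the vertical axis; grey points are all genes (336 lie beyond the plotted limits of 1.2), orange points the 37 other genes of the pathway, and purple points the 10 described genes. Of the 10 genes all but PSD1 lie in the upper left quadrant, below 0 with HAC1 and above 0 without it, with ITR1 next to the horizontal line.

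A list of 37 further genes of inositol supply, phospholipid synthesis, phosphatidate metabolism, regulation and breakdown, all with mean signal above background, had calls in both directions in every comparison. From WT to hac1∆ 13 of the 37 fell and 8 rose, where 22.3% and 28.4% of all genes did, with a median change of −0.04. From WT to WT(hsf1) 16 fell and 9 rose (33.8% and 32.3% of all genes, median of the list −0.12). From hac1∆ to hac1∆(hsf1) 9 fell and 10 rose (30.7% and 26.5% of all genes, median of the list 0.01). The interaction was called upward for 14 and downward for 8 (35.7% and 34.0% of all genes, median of the list 0.07). Without WT replicate 2 the counts were 11 lower and 7 higher from WT to hac1∆, 17 lower and 10 higher from WT to WT(hsf1), and 15 upward and 7 downward for the interaction. Over all 5449 genes the same counts were 1228 lower and 1591 higher, 1764 lower and 1741 higher, and 1930 upward and 1846 downward.

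The genes grouped by role under synthesis and hydrolysis of phosphatidate (phosphatidic acid) held the largest decreases of the list from WT to hac1∆. Of the 12 genes in this group 6 fell and 1 rose, where 22.3% of all genes fell and 28.4% rose. Without WT replicate 2 the counts were 6 and 0, where 1228 of all 5449 genes fell and 1591 rose. DPP1, which encodes a diacylglycerol pyrophosphate phosphatase, fell 1.63-fold (−0.71 ± 0.07, limma adjusted p = 1.1e-05), LPP1, a lipid phosphate phosphatase gene, fell by 0.62 ± 0.07, and SLC1, an acyltransferase gene that forms phosphatidic acid, fell by 0.50 ± 0.07. LPP1 (−0.57 ± 0.07) and SLC1 (−0.68 ± 0.07) were also lower in hac1∆(hsf1) than in WT, as was EPT1 of the Kennedy route (−0.55 ± 0.08). DPP1 too had a lower mean there, at 8.64 ± 0.03 (SD, n = 3) in hac1∆(hsf1) against 9.13 ± 0.09 in WT. Against WT(hsf1), SLC1 changed by −0.80 ± 0.07 in hac1∆ and by −0.98 ± 0.07 in hac1∆(hsf1).

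PAH1, the phosphatidate phosphatase gene, had the largest interaction of the list, 1.03 ± 0.11 (limma adjusted p = 2.94e-06). It averaged 7.18 ± 0.16 (SD, n = 3) in WT and 7.14 ± 0.04 in hac1∆, with 6.72 ± 0.02 in WT(hsf1) and 7.70 ± 0.13 in hac1∆(hsf1). It fell by 0.46 ± 0.08 with (hsf1) in WT cells and rose by 0.57 ± 0.08 with it in hac1∆ cells. APP1, another phosphatidate phosphatase gene, rose by 0.70 ± 0.08 from WT(hsf1) to hac1∆(hsf1), where PAH1 rose by 0.99 ± 0.08. AYR1, which encodes an acyl-dihydroxyacetone-phosphate reductase, fell by 0.48 ± 0.05 with (hsf1) in WT and in hac1∆ cells alike in estimate (interaction 0.001 ± 0.06, not called), and was 0.61 ± 0.05 higher in hac1∆ than in WT(hsf1).

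In the CDP-diacylglycerol route, the gene of phosphatidylinositol synthase, PIS1, which joins inositol to lipid, went the opposite way from INO1 in both pairs that differ by (hsf1). It rose by 0.42 ± 0.07 from WT to WT(hsf1) (limma adjusted p = 9.77e-05) and fell by 0.32 ± 0.07 from hac1∆ to hac1∆(hsf1), with an interaction of −0.74 ± 0.09. CDS1, which makes CDP-diacylglycerol, rose by 0.39 ± 0.08 from WT to WT(hsf1) and was lower in hac1∆ than in WT(hsf1) by a log2 change of −0.56 ± 0.08. PIS1 fell by 0.76 ± 0.07 from WT(hsf1) to hac1∆(hsf1). The 2 inositol monophosphatase genes, whose products release free inositol, differed in direction, with interactions of 0.66 ± 0.09 for INM2 and −0.49 ± 0.09 for INM1.

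In the Kennedy route PCT1, whose product acts on phosphocholine just after choline kinase, rose by 0.42 ± 0.04 from hac1∆ to hac1∆(hsf1) and had an interaction of 0.72 ± 0.06 (limma adjusted p = 1.74e-07). ECT1, its counterpart for ethanolamine, rose by 0.36 ± 0.06 from WT to hac1∆ and by 0.46 ± 0.06 from WT to hac1∆(hsf1). SCS2, whose product anchors Opi1 at the ER, rose by 0.48 ± 0.07 from hac1∆ to hac1∆(hsf1) and by 0.47 ± 0.07 from WT to hac1∆(hsf1).

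Genes of phospholipid breakdown changed in both directions. NTE1, a lysophospholipase that acts on phosphatidylcholine, rose by 0.64 ± 0.05 from WT to WT(hsf1) (limma adjusted p = 2.38e-07), fell by 0.32 ± 0.05 from hac1∆ to hac1∆(hsf1) and had the lowest interaction of the list, −0.96 ± 0.07. It was also lower in both hac1∆ strains than in WT(hsf1), at −0.59 ± 0.05 in hac1∆ and −0.92 ± 0.05 in hac1∆(hsf1). GDE1, a glycerophosphocholine phosphodiesterase gene, rose by 0.42 ± 0.06 from WT to hac1∆, fell by 0.40 ± 0.06 from WT to WT(hsf1), and was 0.82 ± 0.06 higher in hac1∆ and 0.62 ± 0.06 higher in hac1∆(hsf1) than in WT(hsf1). PLB3, a phospholipase B gene, rose by 0.36 ± 0.05 from WT to hac1∆, fell by 0.35 ± 0.05 from hac1∆ to hac1∆(hsf1), and was 0.67 ± 0.05 higher in hac1∆ than in WT(hsf1).

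**Figure D4:**
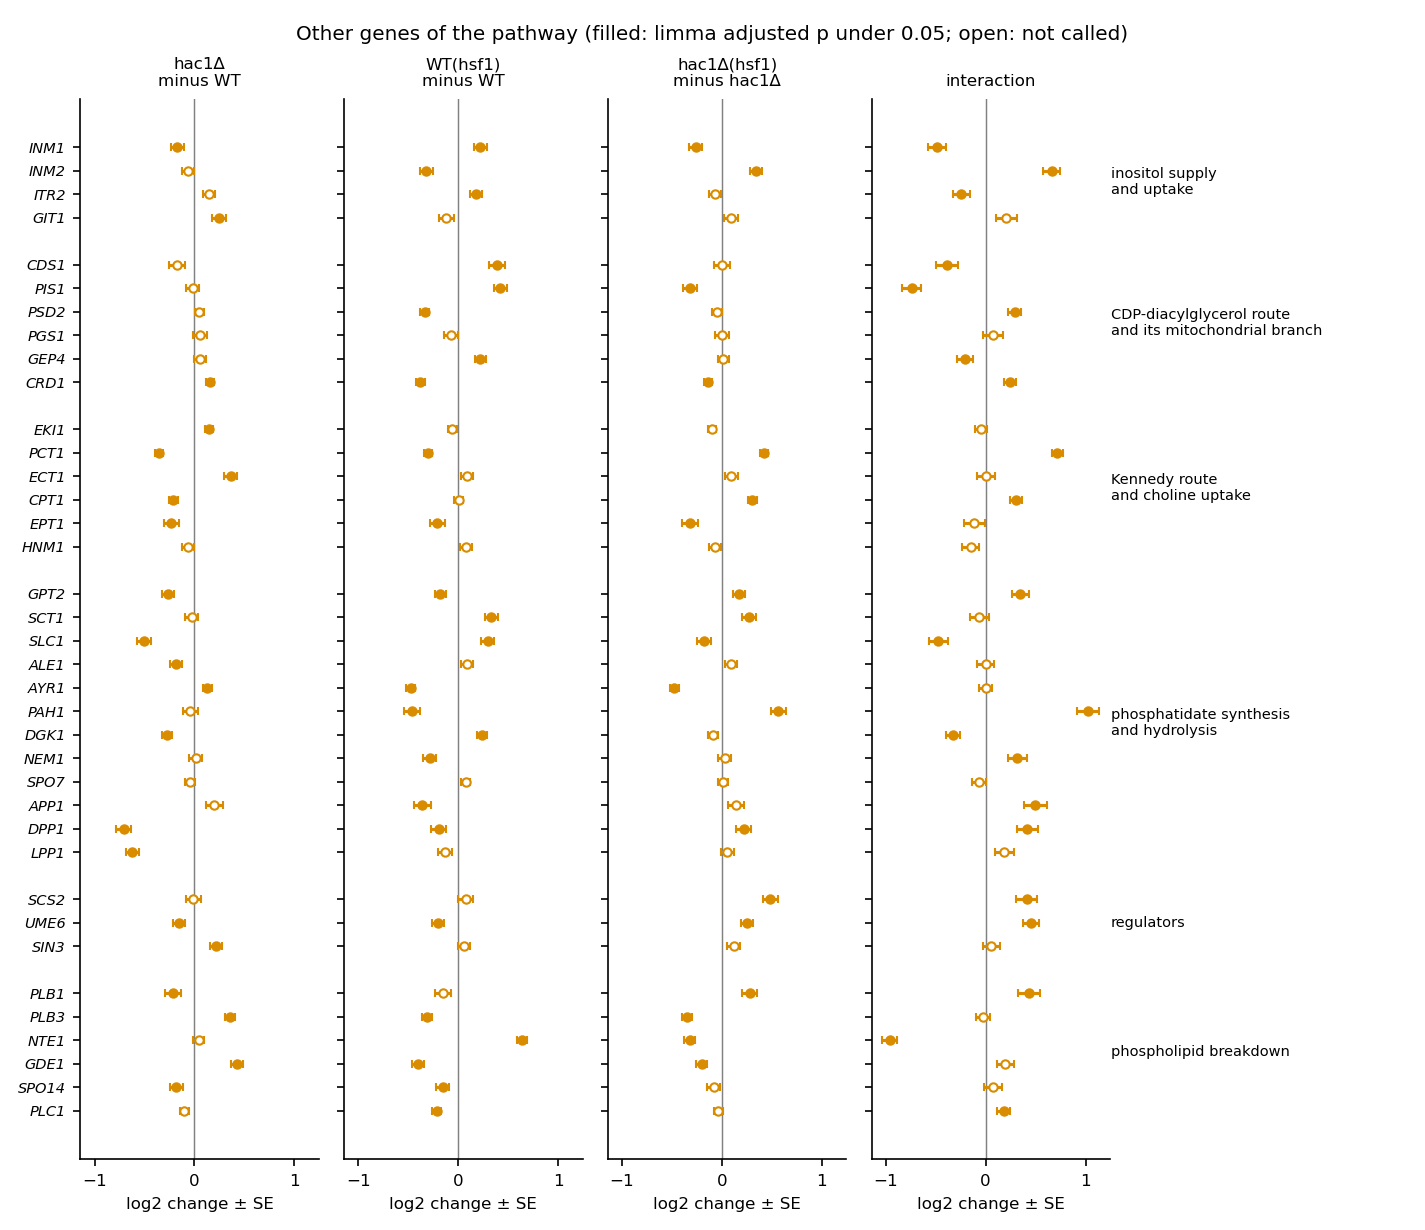
Log2 change ± SE of the 37 other genes of the pathway (rows, grouped by role as written at the right) in 3 comparisons of strains and in the interaction (panels); filled points have a limma adjusted p under 0.05. Called points lie on both sides of 0 in each panel, with DPP1 and LPP1 farthest left in hac1∆ minus WT, NTE1 farthest right in WT(hsf1) minus WT, and PAH1 and NTE1 at the ends of the interaction.

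Likeness of pattern was measured as Pearson's r of log2 signals over the 12 arrays, which fall into 4 strains of 3 and so mostly compare strain means. Across 5235 other genes above background, the genes most like INO1 were AGP3, an amino acid permease gene (r = 0.98), NIT1 (0.98), HSP104, the disaggregase gene (0.98), BIR1 (0.98) and YIL165C (0.98). INO4 was the closest of the other members to INO1, at place 57 with r = 0.94, and HSP104 was also the gene most like INO4 (0.98). HSP104 signal changed by −0.35 ± 0.06 from WT to hac1∆, by −0.70 ± 0.06 from WT to WT(hsf1) and by 0.32 ± 0.06 from hac1∆ to hac1∆(hsf1). OPI3 was most like YMR262W (0.97), IZH2 (0.96), COX5B (0.95), CPD1 (0.95) and SHH3 (0.95). The genes most like ITR1 were HPF1 (0.97), ARH1 (0.96), PUT4 (0.94), HOP1 (0.93) and CCP1 (0.93), and those most like CHO2 were PRP5 (0.91), ECM29 (0.90), YGR109W-B (0.90), CRM1 (0.89) and YAL063C-A (0.88).

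Within the 10 genes, INO2 and OPI1 were the closest after INO1 and INO4, with r = 0.93, and PSD1 ran against CKI1 with r = −0.56. CHO1 had an r of 0.30 with INO1, and the genes most like it were ERO1, the ER thiol oxidase gene (0.99), and KAR2 (0.96). Those neighbours of CHO1 were looked up after its values had been seen. ERO1 averaged 8.94 ± 0.03 (SD, n = 3) in hac1∆ and 10.18 ± 0.21 in hac1∆(hsf1), against 10.45 ± 0.01 in WT(hsf1) and 11.02 ± 0.28 in WT. That is the same order of strain means as CHO1 over a wider span. Of the neighbours in the order of CHO1, only hac1∆ and hac1∆(hsf1) were called apart. The order of PSD1 differed from that of CHO1, since hac1∆(hsf1), not hac1∆, was its lowest strain, though the hac1∆ strains were not called apart for PSD1.

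**Figure D5:**
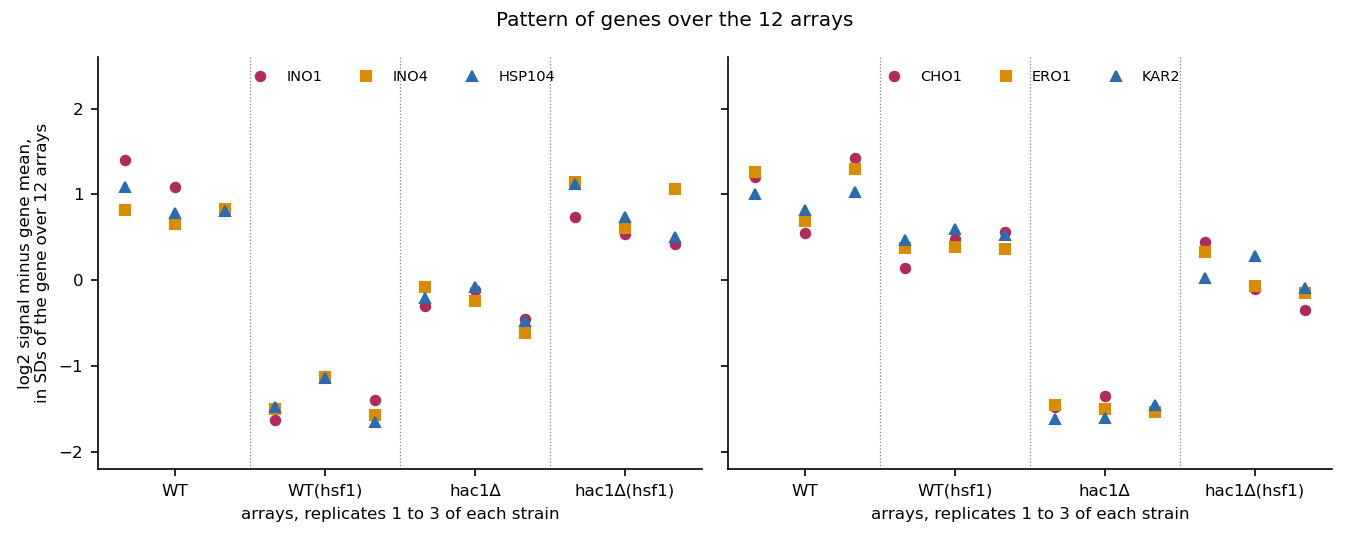
Log2 signal of 6 genes on the 12 arrays (horizontal axis, by strain and replicate), centred on each gene's mean and divided by its SD over the 12 arrays (vertical axis). INO1, INO4 and HSP104 (left) are lowest in WT(hsf1), whereas CHO1, ERO1 and KAR2 (right) are lowest in hac1∆.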

How the data were processed

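The authors deposited log2 signals, 1 per probe set and array; PLIER is the tool named, per the submitters' processing notes, with no version. No label or header used here states the background correction, the normalization between arrays or any offset, and log2 was read from the values (4.84 to 12.75 over 10928 probe sets, array medians 6.00 to 6.07). Values level off at the low end, which understates the folds of dim genes. The platform annotation and the RefSeq gene table (assembly R64) tied 5498 probe sets to S. cerevisiae, and the one with the highest mean was kept per gene, leaving 5449. Background is the mean signal below which 95% of 1746 probe sets with a listed gene outside that table lie. No gene was removed, and no 2 arrays held equal values. limma 3.58.1 (R 4.3.3) fitted 1 mean per strain to all 12 arrays (8 residual degrees of freedom), with Benjamini-Hochberg adjustment across all genes, and was tested on simulated data. Each SE pools the spread of all 4 strains. The number of arrays limits the precision.

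The 10 genes, the 37 pathway genes and the tests were chosen with earlier results of these data known. Named in each comparison are the 10 genes and, from the 37, up to 3 called genes with the largest increase and 3 with the largest decrease whose arrays did not overlap. HAC1, HSF1, KAR2, URA3 and the mating-type genes were named as checks. Likeness was computed for all 10 genes, with the 5 closest genes named by rule for INO1, ITR1, OPI3 and CHO2; other neighbours named were chosen after their values were seen. Same-numbered replicates of hac1∆ and hac1∆(hsf1) deviated together from their strain means (correlation across genes 0.15 to 0.50). Different numbers of that pair gave −0.46 to 0.16, so the ranges touch and pairing of the arrays is uncertain. A paired fit of that pair was run as an alternative, and the main fit was unpaired. No other pair of strains passed 0.1 in all 3 numbers. WT(hsf1) and hac1∆ gave 0.09 to 0.14 for the same number and −0.18 to 0.05 for different numbers. Alternatives were quantile normalization, a common median, array weights, an intensity trend, the compared strains alone, a replicate block, genes above background alone, the mean of a gene's probe sets, and leaving out each array.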

Additional observations from a re-analysis of the deposited data

Results flagged for a closer look

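The change that goes with (hsf1) differed between hac1∆ and WT cells for the genes below, by a called interaction in limma. They were taken from the 10, the other pathway genes named, HSF1 and KAR2. The labels do not say whether (hsf1) is the same change in both strains, and HSF1 signal differed between them. Unequal (hsf1) changes and a dependence on HAC1 cannot be told apart here. Of the 10 genes, the estimates (log2) were 0.91 for INO2, 0.87 for INO4, 0.74 for INO1, 0.67 for CKI1, 0.63 for OPI1, 0.42 for OPI3, 0.33 for CHO1 and 0.21 for ITR1. Among the other genes of the pathway they were 1.03 for PAH1, 0.72 for PCT1, 0.66 for INM2, 0.50 for APP1, 0.41 for DPP1 and 0.41 for SCS2, and below 0 they were −0.38 for CDS1, −0.48 for SLC1, −0.49 for INM1, −0.74 for PIS1 and −0.96 for NTE1. HSF1 had an interaction of 2.92 and KAR2 one of 1.31. Over all genes 35.7% were called upward and 34.0% downward.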

How the results depend on the processing

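Counts of called genes among the 10 were within 1.5 times the reported count under every alternative run except 2. With only the compared strains fitted, 2 were called between hac1∆(hsf1) and WT (5 reported). Over all 5449 genes that fit called 2516, against 3111 in the main fit. With array weights 8 were called between hac1∆ and WT(hsf1) (5 reported), where 4462 of all 5449 genes were called, against 3718 in the main fit. The cause was not tested. With the replicate block the counts were 8 for hac1∆ minus WT, 7 for WT(hsf1) minus WT, 7 for hac1∆(hsf1) minus hac1∆ and 8 for the interaction. In the same order, 2844, 3640, 3172 and 3854 of all 5449 genes were called. The block changed no call of the 10 genes. In hac1∆ and hac1∆(hsf1) alone, a paired fit chosen after seeing the data called 7 of the 10 and 3298 of all 5449 genes. Of 1400 recomputed changes of single genes 21 lost and 14 gained a call, and no called change turned its sign. The interaction stayed called in all alternatives run for the 8 genes, at 0.63 to 0.78 for INO1 and 0.84 to 1.02 for INO2. CHO2 gained it with quantile normalization (0.21) and without hac1∆(hsf1) replicate 3 (0.21). All 37 pathway counts stayed within 1.5 times.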
